A study of Rattus norvegicus with 12 samples.

Results

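TonEBP, encoded by Nfat5, and genes known as its osmoprotective targets were followed across RNA-seq libraries of rat nucleus pulposus (NP) cells, which populate the soft centre of the disc between vertebrae. The set was chosen by name and role: Nfat5 with Akr1b1, Slc6a6, Slc5a3, Slc38a2, Sgk1, Aqp1, Hspa4l, Hspb1 and Slc2a6. Of these 10 genes, 9 had values in all libraries, out of 12899 genes measured throughout. Slc5a3, the myo-inositol transporter gene, had no row and is not analysed here. The cells came from spines of Wistar rats, grew out of explants in serum-containing medium, and all carried a lentiviral shRNA vector. The 4 groups of 3 libraries were shTon_TNF (shRNA against TonEBP, 50 ng/mL of the inflammatory cytokine TNF-a for 24 h), PLKO_TNF (control shRNA with the same TNF-a treatment), shTon_CTR (TonEBP shRNA, untreated) and PLKO_CTR (control shRNA, untreated). The libraries of each group are numbered as sets 1, 2 and 3. What a set stands for (animal, culture, day) is not stated, so the p-values reflect no more than the spread among the libraries at hand. The labels name no osmotic treatment of any group.

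NP cells live in a tissue whose charged matrix draws in water and salt, so that they face high and changing osmolarity. In kidney and disc cells, TonEBP moves to the nucleus under hypertonic conditions and binds tonicity enhancer elements (TonE) near genes that let cells gather organic osmolytes in place of salt. Akr1b1 makes sorbitol, Slc6a6 carries taurine, Slc38a2 carries neutral amino acids, and chaperones protect proteins while the cell adjusts. TonEBP also takes part in inflammatory gene expression together with NF-kB, and TNF-a is a cytokine of degenerating discs.

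Because TonEBP binds DNA at TonE, windows around the start sites of the genes were searched for its letters. Windows of 300 bases (250 before to 50 after a RefSeq start site, build GRCr8) were matched by symbol for 8 of the 10 genes, all but Nfat5 and Akr1b1, and gave 10 windows because Sgk1 has 3 start sites. The core TGGAAA, searched on both strands, was present in 4 of these windows belonging to 3 genes (Slc6a6, Hspb1 and Sgk1), against 22.7% of all 33469 windows of the same length. The longer TonE consensus, which contains that core, was present in the Slc6a6 and Hspb1 windows, against 5.98% of all windows. The shorter GGAAA, which lies within the core, was present in 8 windows of 7 genes, against 62.7% of all windows. The 4 windows with the core are printed 5′ to 3′ on the gene's own strand, with the core or its reverse complement TTTCCA in capitals. They lie at chr4:125752252-125752551 on the plus strand (Slc6a6), chr12:26432252-26432551 on the minus strand (Hspb1), and chr1:24805521-24805820 and chr1:24804782-24805081 on the minus strand (Sgk1).
Slc6a6: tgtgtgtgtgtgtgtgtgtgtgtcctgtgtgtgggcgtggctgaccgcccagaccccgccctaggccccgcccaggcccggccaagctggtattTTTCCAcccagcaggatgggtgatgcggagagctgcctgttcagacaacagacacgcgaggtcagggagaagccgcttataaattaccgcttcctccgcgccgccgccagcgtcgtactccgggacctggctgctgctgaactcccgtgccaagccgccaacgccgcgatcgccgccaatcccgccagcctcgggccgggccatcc
Hspb1: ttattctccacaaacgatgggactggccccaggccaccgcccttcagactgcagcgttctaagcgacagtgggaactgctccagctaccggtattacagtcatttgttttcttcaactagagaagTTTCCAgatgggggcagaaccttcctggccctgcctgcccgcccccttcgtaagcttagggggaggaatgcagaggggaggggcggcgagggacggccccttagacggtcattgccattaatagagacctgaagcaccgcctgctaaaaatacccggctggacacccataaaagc
Sgk1, middle start: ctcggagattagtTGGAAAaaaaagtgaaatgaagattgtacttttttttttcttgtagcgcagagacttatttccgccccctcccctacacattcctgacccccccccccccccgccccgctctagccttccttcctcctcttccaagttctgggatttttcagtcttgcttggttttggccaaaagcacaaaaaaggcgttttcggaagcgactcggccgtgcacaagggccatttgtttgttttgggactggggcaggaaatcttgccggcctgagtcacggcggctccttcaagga
Sgk1, downstream start: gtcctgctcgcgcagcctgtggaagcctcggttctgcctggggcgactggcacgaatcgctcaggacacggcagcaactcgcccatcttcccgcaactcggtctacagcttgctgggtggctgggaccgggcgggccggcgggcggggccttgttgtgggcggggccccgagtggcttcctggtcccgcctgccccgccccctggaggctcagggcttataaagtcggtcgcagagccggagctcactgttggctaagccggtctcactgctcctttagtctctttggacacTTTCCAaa
The core lies at bases -156 to -151 from the start site in Slc6a6, -125 to -120 in Hspb1, -237 to -232 in the window of the middle Sgk1 start and 42 to 47 in that of the downstream start. These matches describe letters only. Enhancers outside the windows, where many TonE elements lie, were not searched.

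The libraries held 7014925 to 18518389 reads on the shared genes, and levels are given as normalised reads, scaled over the 12 libraries. They compare libraries for 1 gene and not genes with each other. The sets differed in makeup: summed reads of 10 listed skeletal muscle markers ran from 42201.5 to 98556.7 in set 1, from 16067.5 to 30273.7 in set 2 and from 171.2 to 247.3 in set 3. The muscle sum was higher in the shTon than in the PLKO library of the same set in 5 of 6 pairs. Likewise in 5 of 6 pairs, shTon libraries had higher sums of 8 fibroblast markers (29983.0 to 155184.0 in shTon_TNF against 36949.4 to 95815.3 in PLKO_TNF, and 44511.6 to 191588.6 in shTon_CTR against 43791.2 to 163436.1 in PLKO_CTR). The same held for the 2 macrophage and blood markers with values of 10 listed (299.8 to 677.5 in shTon_TNF against 186.4 to 293.3 in PLKO_TNF, and 251.5 to 524.1 in shTon_CTR against 276.9 to 346.1 in PLKO_CTR). The part of these cell types in the results below was not tested. Of 13 NP and notochord markers, 5 had values (Krt8, Cd24, Car3, Pax1 and Bsg), with sums between 13119.4 and 22536.2 in every library. Within it, Bsg averaged 8245, 14628 and 13271 normalised reads in sets 1, 2 and 3, Car3 averaged 9344, 3569 and 17.4, and Krt8 averaged 140.3, 123.1 and 1784, so the sets differed in these markers too. Krt18, Krt19, T and Foxa2 are not analysed here. Cells of several types may therefore contribute to each value, and fewer cells of a type cannot be told apart from less RNA per cell.

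Nfat5 itself (ENSRNOG00000011879), the gene the shRNA is directed against, checks the labels. In untreated cells, Nfat5 had 457.8, 457.0 and 287.6 normalised reads in shTon_CTR sets 1, 2 and 3, against 685.0, 1363 and 1818 in PLKO_CTR. With TNF-a, Nfat5 had 1695, 499.7 and 231.7 normalised reads in shTon_TNF sets 1, 2 and 3, against 641.5, 1092 and 483.1 in PLKO_TNF. The untreated groups did not overlap, and the shTon library was lower in all 3 sets. With TNF-a, sets 2 and 3 were again lower with the shRNA, but the library labelled shTon_TNF set 1 held more Nfat5 reads than its PLKO partner and the second-highest level of all 12 libraries. Within sets, the log2 ratio of shTon to PLKO was -0.58, -1.57 and -2.66 without TNF-a in sets 1 to 3, and 1.40, -1.13 and -1.06 with TNF-a. In its Nfat5 level, that library goes against its label. By value, Akr1b1, Slc38a2, Sgk1 and Aqp1 were lower in it than in its PLKO partner, as in sets 2 and 3 with TNF-a. Slc6a6 and Hspb1 were higher in it, and Hspa4l and Slc2a6 differed little. Knockdown results of the members are also given without this library or without its set, and counts over other lists without it.

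**Figure D1:**
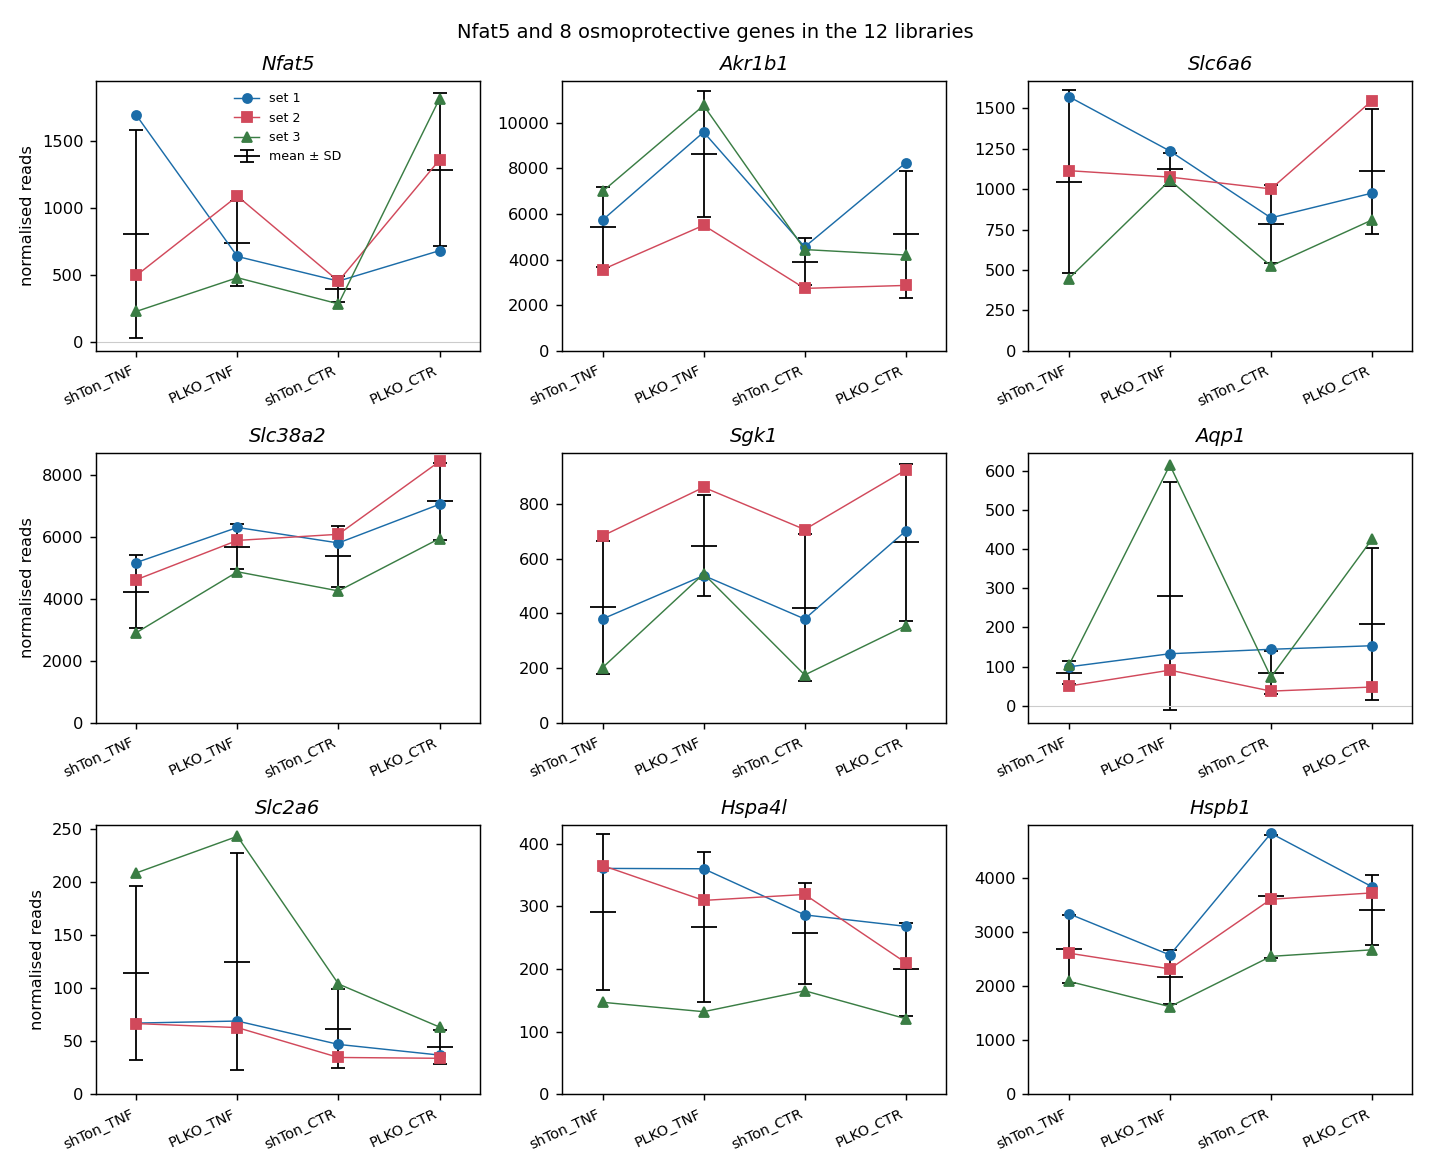
Normalised reads of the 9 measured genes in each library, 1 panel per gene, with the groups shTon_TNF, PLKO_TNF, shTon_CTR and PLKO_CTR from left to right. Coloured points joined by lines are sets 1 to 3 and black bars are the group mean ± SD (n = 3); the Nfat5 panel shows the library labelled shTon_TNF set 1 at 1695 normalised reads, above the other shTon libraries at 231.7 to 499.7.

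Group means of Nfat5 were 808.9 ± 779.3 normalised reads in shTon_TNF, 738.8 ± 315.8 in PLKO_TNF, 400.8 ± 98.0 in shTon_CTR and 1289 ± 570.3 in PLKO_CTR (SD, n = 3 each). From high to low the order was PLKO_CTR, shTon_TNF, PLKO_TNF and shTon_CTR, and of these neighbours only PLKO_TNF and shTon_CTR differed by more than the larger of their SDs. The knockdown gave a log2 fold change of -1.60 without TNF-a (95% confidence interval -2.38 to -0.82) and missed the threshold in limma (adjusted p = 0.0986, Benjamini-Hochberg over all genes, threshold 0.05). With TNF-a the log2 fold change was -0.26 (interval -1.26 to 0.74, adjusted p = 0.794). Without set 1, Nfat5 fell by 2.12 on the log2 scale without TNF-a (adjusted p = 0.0478) and by 1.09 with TNF-a (adjusted p = 0.00333). Leaving out set 3 also gave a call without TNF-a (-1.08, adjusted p = 0.00540), while leaving out set 2 gave none (-1.62, adjusted p = 0.282). In the authors' deposited table, Nfat5 had a log2 fold change of -1.19 (adjusted p = 4.57e-05) without TNF-a and -0.03 (adjusted p = 0.987) with it.

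With TNF-a, Nfat5 was lower by value in PLKO cells and higher in shTon cells. The log2 ratio of PLKO_TNF to PLKO_CTR was -0.09, -0.32 and -1.91 in sets 1 to 3, with a fitted change of -0.77 (interval -1.53 to -0.02, adjusted p = 0.164). In shTon cells the fitted change was 0.57 (interval -0.32 to 1.46, adjusted p = 0.469), and -0.09 without set 1. The difference between these effects, the interaction, was 1.34 (interval -0.47 to 3.15, adjusted p = 0.999). Neither effect nor their difference passed the threshold, so no change of Nfat5 with TNF-a is called in either direction.

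Genes whose levels across the 12 libraries were most like those of Nfat5 were ranked by Pearson's r after the set means were removed, among 9286 genes averaging 100 normalised reads or more. The 5 closest were Sod3 (r = 0.980), an extracellular superoxide dismutase; Wipf1 (0.976), an actin regulator; Acap2 (0.975), a GTPase-activating protein for Arf proteins; Atg13 (0.963), an autophagy initiation protein; and Atp11b (0.956), a phospholipid flippase. Sod3 shows the shared shape. Sod3 had 1660, 1201 and 607.1 normalised reads in shTon_TNF sets 1 to 3, against 903.9, 1949 and 912.9 in PLKO_TNF, and 671.6, 1208 and 696.2 in shTon_CTR, against 1111, 2833 and 2054 in PLKO_CTR. All 5 genes had their highest set 1 level in the library labelled shTon_TNF set 1, as Nfat5 did. Among the targets, Slc6a6 was closest to Nfat5 (r = 0.70, rank 515), followed by Slc38a2 (0.59, rank 1058), Aqp1 (0.50, rank 1611) and Sgk1 (0.40, rank 2204). Hspb1 (0.04) and Akr1b1 (-0.12) were near 0, and Slc2a6 (-0.36) and Hspa4l (-0.42) were below it. The libraries share 4 groups and 3 sets, so these values describe the 12 libraries and carry no test.

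**Figure D2:**
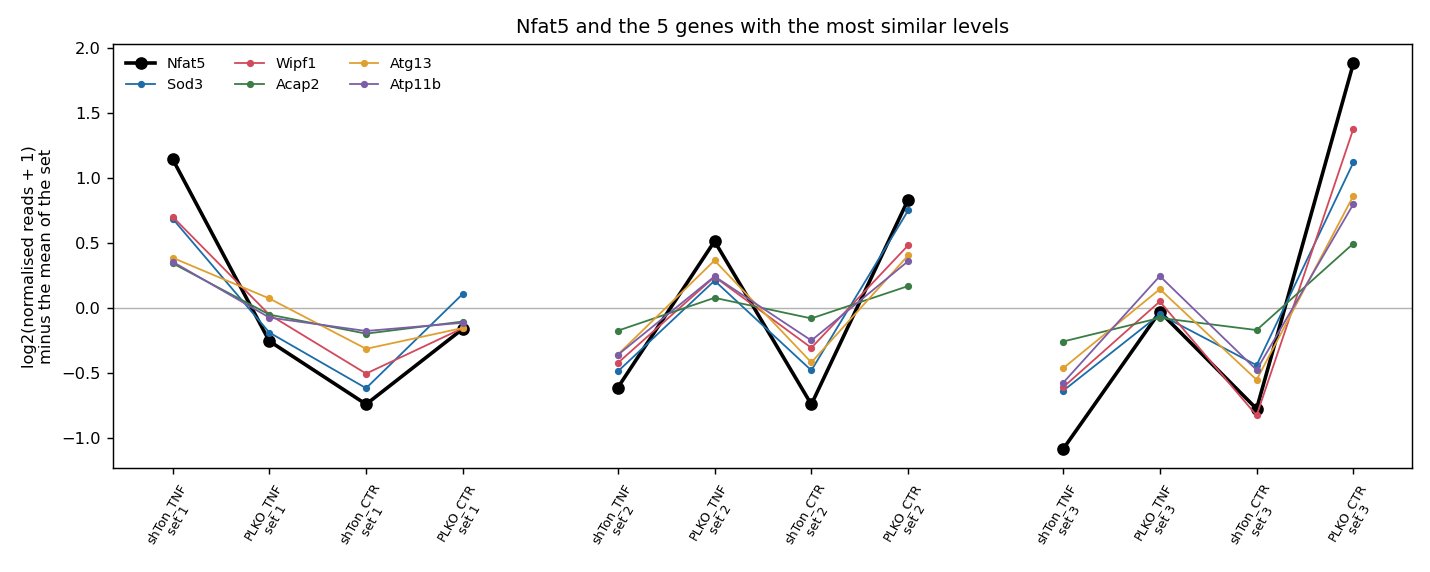
Log2(normalised reads + 1) minus the mean of the set, for Nfat5 and the 5 genes most like it, in each of the 12 libraries. Lines for Sod3, Wipf1, Acap2, Atg13 and Atp11b follow Nfat5, with r between 0.956 and 0.980, and share its high value in the library labelled shTon_TNF set 1.

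The comparison of shTon with PLKO cells asks whether osmoprotective genes change when TonEBP is targeted. No member passed in either treatment state alone in limma. In untreated cells 0.114% of 12294 genes passed (0.0163% higher, 0.0976% lower), and 0 of the 9 members did. An unadjusted p under 0.05 in limma was held by 2103 of these genes and by 4 members, Nfat5 among them. Of the same 12294 genes, edgeR called 20 and 0 members, and DESeq2 called 394, Sgk1 among them. With TNF-a 0.253% of 12244 genes passed (0.114% higher, 0.139% lower), and 0 of 9 members did. Here 2080 of these genes and 4 members had an unadjusted p under 0.05 in limma. Of the same 12244 genes, edgeR called 29 and 0 members, and DESeq2 called 375, Akr1b1 and Aqp1 among them. By value, 6 of 9 members were lower in shTon_CTR than in PLKO_CTR and 7 of 9 were lower in shTon_TNF than in PLKO_TNF. The median log2 fold change of the 9 was -0.41 without and -0.28 with TNF-a, where the median of all genes was 0.01 and 0.02. These counts include Nfat5, which the shRNA itself is directed against. Of the 8 targets alone, 5 were lower and 3 higher without TNF-a (median -0.35). With TNF-a, 6 were lower and 2 higher (median -0.37).

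The shRNA effect averaged over treated and untreated cells uses all 12 libraries. It was added after the data had been seen. In this fit, 13.5% of 12310 genes passed (6.38% higher, 7.12% lower), and 2 of 9 members passed, both lower: Sgk1 and Slc38a2. DESeq2 called 4 members lower, adding Akr1b1 and Aqp1, where it called 2152 of the 12310 genes, 1129 of them lower. EdgeR called 2 members, where it called 1649 genes, 881 of them lower. Without set 2 both calls were lost, and 0 genes of the whole table passed in limma, with 2144 at an unadjusted p under 0.05; without set 3 the number of genes fell to 576, against 1661 with all sets. Nfat5 itself had an averaged log2 fold change of -0.93 (interval -1.84 to -0.03, adjusted p = 0.158), and it fell by 1.38 without the library labelled shTon_TNF set 1 (adjusted p = 0.00910). That library was singled out by its high Nfat5 level, so for Nfat5 the second value is no independent test of the knockdown.

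Sgk1 (ENSRNOG00000011815) encodes a kinase that regulates ion channels and transporters and responds to cell shrinkage. Sgk1 had 379.8, 684.3 and 201.4 normalised reads in shTon_TNF sets 1 to 3, against 539.0, 862.3 and 545.2 in PLKO_TNF. Untreated, it had 379.6, 707.6 and 174.4 in shTon_CTR, against 702.5, 925.8 and 354.7 in PLKO_CTR. It was lower with the shRNA in 6 of 6 pairs, although the groups overlap because set 2 was high throughout. Averaged over treatments, Sgk1 fell by 0.76 on the log2 scale (SE 0.16, interval -1.12 to -0.40, adjusted p = 0.0139), a ratio of 0.590. Without the library labelled shTon_TNF set 1 the change was -0.76 (adjusted p = 0.0202), and without set 2 it was -0.96 (adjusted p = 0.121). The authors' deposited log2 fold change for Sgk1 was -0.65 without TNF-a (adjusted p = 0.0141) and -0.60 with it (adjusted p = 0.128). The windows of Sgk1 held the TonE core at 2 of its 3 start sites, without the longer consensus. The Slc38a2 window held no core, and Hspb1, with the longer consensus, was not called for the shRNA. A link between these letters and the changes was not tested.

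Slc38a2 (ENSRNOG00000006305) encodes SNAT2, a sodium-coupled transporter that brings in neutral amino acids under hypertonic stress. Slc38a2 had 5163, 4609.7 and 2901 normalised reads in shTon_TNF sets 1 to 3, against 6296, 5877 and 4865 in PLKO_TNF. Untreated, it had 5795, 6075 and 4248 in shTon_CTR, against 7043, 8427 and 5939 in PLKO_CTR. Every shTon library was lower than its PLKO partner, in 6 of 6 pairs. Averaged over treatments, Slc38a2 fell by 0.44 on the log2 scale (SE 0.10, interval -0.65 to -0.22, adjusted p = 0.0160). The change was -0.50 without the library labelled shTon_TNF set 1 (adjusted p = 0.00835). Leaving out set 2 gave -0.45 (adjusted p = 0.199) and leaving out set 3 gave -0.35 (adjusted p = 0.102), and the call was lost in both.

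Aqp1 (ENSRNOG00000011648), a water channel, had the widest knockdown ratio among the targets. Aqp1 had 99.2, 50.1 and 103.0 normalised reads in shTon_TNF sets 1 to 3, against 132.7, 90.7 and 614.9 in PLKO_TNF. Untreated, it had 144.1, 37.2 and 72.9 in shTon_CTR, against 153.2, 47.6 and 425.5 in PLKO_CTR. All 6 pairs were lower with the shRNA, and set 3 held by far the widest gap, since its PLKO libraries had the highest Aqp1 levels of all 12. Averaged over treatments the log2 fold change was -1.13 (SE 0.36, interval -1.92 to -0.34) and just missed the threshold (adjusted p = 0.0606); without set 3 it was -0.42 (adjusted p = 0.320). It was -1.17 without the library labelled shTon_TNF set 1 (adjusted p = 0.0698) and passed without the whole of set 1 (-1.57, adjusted p = 0.0302). In TNF-a treated cells, Aqp1 changed by -1.28 (adjusted p = 0.174) over all sets, and it passed when set 1 (-1.71, adjusted p = 0.00155) or set 2 (-1.49, adjusted p = 0.0315) was left out. The authors' deposited log2 fold change for Aqp1 was -0.93 with TNF-a (adjusted p = 0.0261) and -0.63 without it (adjusted p = 0.178). Aqp1 is also made by endothelial cells, and the 2 endothelial markers with values, Tek and Egfl7, summed to 147.6 to 384.6 normalised reads over the 12 libraries. Those sums were 384.6 in shTon_TNF against 322.0 in PLKO_TNF in set 3, and the part of these cells in the Aqp1 values was not tested.

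Among the genes of osmolyte handling, Akr1b1 (ENSRNOG00000009513), the aldose reductase that turns glucose into sorbitol, missed the threshold in both knockdown comparisons. Akr1b1 had 5737, 3564 and 6994 normalised reads in shTon_TNF sets 1 to 3, against 9595, 5506 and 10763 in PLKO_TNF. Untreated, it had 4556, 2736 and 4440.4 in shTon_CTR, against 8249.7, 2867 and 4199.7 in PLKO_CTR. It was lower with the shRNA in all 3 sets under TNF-a and in sets 1 and 2 without it. With TNF-a the log2 fold change was -0.66 (interval -1.06 to -0.27, adjusted p = 0.134), and averaged over treatments it was -0.47 (adjusted p = 0.0592). Leaving out set 1 gave -0.62 with TNF-a (adjusted p = 0.193) and 0.01 without it (adjusted p = 0.985), and the averaged value was -0.40 without the library labelled shTon_TNF set 1 (adjusted p = 0.0972). The authors' deposited table holds a log2 fold change of -0.59 for Akr1b1 with TNF-a (adjusted p = 0.0336). Slc6a6 (ENSRNOG00000009019), the taurine transporter, had 1573, 1114 and 446.6 normalised reads in shTon_TNF sets 1 to 3, against 1236, 1075 and 1055 in PLKO_TNF. Untreated, it had 822.4, 1002 and 524.5 in shTon_CTR, against 975.6, 1548 and 809.3 in PLKO_CTR. Slc6a6 was thus lower in all 3 untreated sets and in 1 of the 3 treated ones. The averaged change was -0.39 (interval -0.83 to 0.05, adjusted p = 0.220), with -0.57 when the library labelled shTon_TNF set 1 was left out (adjusted p = 0.0371) and -0.12 when set 3 was (adjusted p = 0.715).

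Averaged over treatments, the chaperones and Slc2a6 did not follow the direction of Sgk1 and Slc38a2 by value. Hspa4l (ENSRNOG00000010819), an Hsp110-family chaperone first described as an osmotic stress protein, had 360.6, 365.2 and 146.9 normalised reads in shTon_TNF sets 1 to 3, against 360.0, 309.5 and 131.9 in PLKO_TNF. Untreated, it had 286.4, 319.0 and 165.3 in shTon_CTR, against 268.1, 210.1 and 120.7 in PLKO_CTR. It was higher with the shRNA in 6 of 6 pairs, although by under 1 read in set 1 with TNF-a, and its averaged log2 fold change of 0.26 (interval 0.01 to 0.51) missed the threshold (adjusted p = 0.160). The averaged change of Hspb1 (ENSRNOG00000023546), the small heat-shock protein Hsp27, was 0.19 (interval 0.01 to 0.37, adjusted p = 0.153). For Slc2a6 (ENSRNOG00000005900), a member of the glucose transporter family, it was 0.15 (interval -0.22 to 0.52, adjusted p = 0.589). These directions were mixed. Slc2a6 stood at 0.36 without TNF-a and at -0.06 with it, and Hspb1 was lower with the shRNA in 2 of 3 untreated sets. Without the library labelled shTon_TNF set 1, the averaged values were 0.26 for Hspa4l (adjusted p = 0.184), 0.18 for Hspb1 (adjusted p = 0.188) and 0.20 for Slc2a6 (adjusted p = 0.468).

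**Figure D3:**
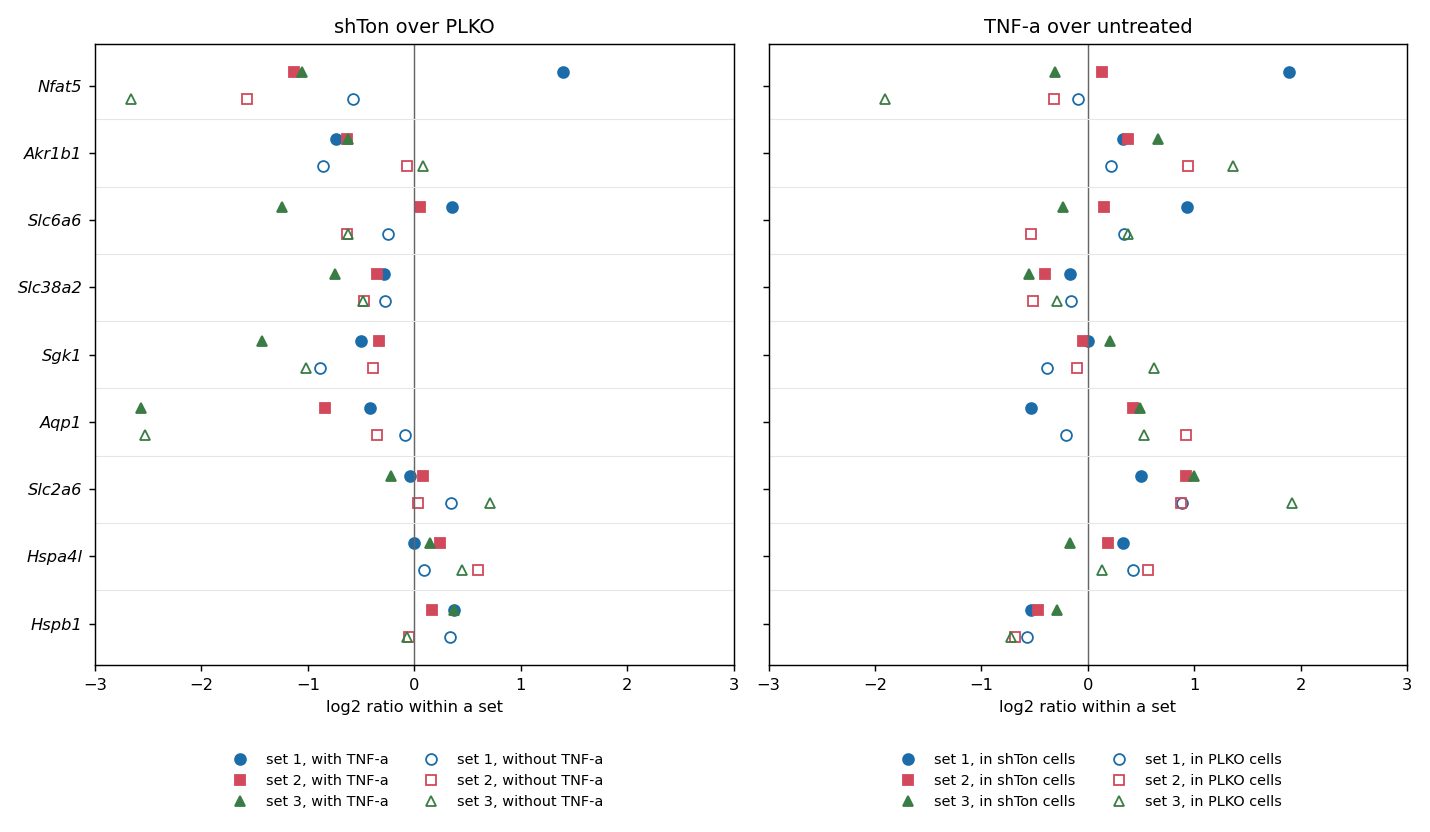
Log2 ratio of normalised reads within each set for the 9 genes: shTon over PLKO on the left (filled points with TNF-a, open points untreated) and TNF-a over untreated on the right (filled points shTon, open points PLKO). Slc38a2, Sgk1 and Aqp1 lie below 0 in 6 of 6 knockdown pairs, and on the right Akr1b1 and Slc2a6 lie above 0 and Hspb1 and Slc38a2 below 0 in 6 of 6 pairs.

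The comparison of TNF-a with untreated PLKO cells asks what the cytokine does to these genes when TonEBP is not targeted. In limma, 10.0% of 12207 genes passed (5.15% higher, 4.85% lower), and 3 of 9 members did. Slc2a6 and Akr1b1 rose, and Hspb1 fell. Slc2a6 had 69.2, 63.0 and 243.4 normalised reads in PLKO_TNF sets 1 to 3, against 37.0, 34.0 and 63.5 in PLKO_CTR, and rose by 1.23 on the log2 scale (SE 0.26, adjusted p = 0.0348), a ratio of 2.34. All 3 sets were higher, set 3 the most, and without set 3 the change of 0.88 missed the threshold (adjusted p = 0.0946). Akr1b1, with the levels given above, rose by 0.84 (SE 0.21, interval 0.35 to 1.33, adjusted p = 0.0492). Its log2 ratio was 0.22, 0.94 and 1.36 in sets 1 to 3, and the call was lost when set 2 (0.79, adjusted p = 0.0534) or set 3 (0.58, adjusted p = 0.0994) was left out. Hspb1 had 2578, 2320.2 and 1622 normalised reads in PLKO_TNF sets 1 to 3, against 3839.8, 3726 and 2674 in PLKO_CTR. Its groups did not overlap, it fell by 0.66 on the log2 scale (SE 0.10, adjusted p = 0.0130), and leaving out any set kept the call (adjusted p between 0.0146 and 0.0226). In a fit without the mean-variance trend, none of the 3 passed (adjusted p = 0.0784 for Hspb1, 0.0907 for Slc2a6 and 0.134 for Akr1b1 in limma). The authors' deposited table holds Akr1b1 at 0.75 (adjusted p = 0.00126), Hspb1 at -0.63 (adjusted p = 0.000188) and Slc2a6 at 1.01 (adjusted p = 0.00201).

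The remaining 6 members missed the threshold in TNF-a treated against untreated PLKO cells. Hspa4l had a log2 fold change of 0.37 (adjusted p = 0.142), Aqp1 of 0.41 (adjusted p = 0.262) and Slc38a2 of -0.32 (adjusted p = 0.125). Slc6a6 and Sgk1 were close to 0, at 0.07 (interval -0.37 to 0.50) and 0.04 (interval -0.40 to 0.49), and both changed sign when single sets were left out. The median over the 9 members was 0.07, where the median of all genes was -0.01.

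In shTon cells, 3.28% of 12339 genes passed (1.95% higher, 1.33% lower) for TNF-a against untreated, and 0 of 9 members did in limma. An unadjusted p under 0.05 in limma was held by 2321 of these genes and by 4 members. The count of members called was 0 in edgeR and in DESeq2 as well, where 403 and 671 genes passed. The values ran the same way for the 3 genes called in PLKO cells. Slc2a6 had 67.2, 66.8 and 208.9 normalised reads in shTon_TNF sets 1 to 3, against 47.1, 34.8 and 104.1 in shTon_CTR, a log2 fold change of 0.81 (interval 0.32 to 1.30, adjusted p = 0.0931). Akr1b1 changed by 0.46 (interval 0.15 to 0.77) and Hspb1, with 3341, 2612 and 2091 normalised reads in shTon_TNF against 4829, 3609 and 2552 in shTon_CTR, by -0.43 (interval -0.72 to -0.14), each with an adjusted p of 0.121. Without set 1, Slc2a6 rose by 0.96 (adjusted p = 0.0150).

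Whether the TNF-a effect differs between shTon and PLKO cells was tested on all 12 libraries. No gene of 12310 passed (0%), and 0 of 9 members did, with 219 genes and 0 members at an unadjusted p under 0.05 in limma. The count was also 0 in edgeR (248 genes at that level) and in DESeq2 (272 genes). For Akr1b1 the interaction was -0.38 (interval -1.04 to 0.27), for Slc2a6 -0.42 (interval -1.15 to 0.32) and for Hspb1 0.23 (interval -0.13 to 0.59), each with an adjusted p of 0.999. These intervals are as wide as the TNF-a effects themselves for Akr1b1 and Slc2a6, so this design could not tell apart an equal response in both kinds of cells from one that differs.

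Averaged over both vectors, an effect also added after the data had been seen, TNF-a changed 4 of 9 members where 15.0% of genes passed (7.55% higher, 7.44% lower). Hspb1 fell by 0.54 on the log2 scale (SE 0.08, adjusted p = 0.00215), and Slc38a2 fell by 0.35 (SE 0.10, adjusted p = 0.0359). Slc2a6 rose by 1.02 (SE 0.17, adjusted p = 0.00333) and Akr1b1 by 0.65 (SE 0.15, adjusted p = 0.0159). Each moved one way in 6 of 6 pairs. All 4 calls were lost without set 2, when 163 genes passed in all, and those of Akr1b1 (0.47, adjusted p = 0.0870) and Slc38a2 (-0.31, adjusted p = 0.110) also without set 3. Slc38a2 was the only member called in both averaged effects, lower with the shRNA and lower with TNF-a, and its lowest group mean was 4225 ± 1179 normalised reads in shTon_TNF, against 7136 ± 1247 in PLKO_CTR (SD, n = 3 each).

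**Figure D4:**
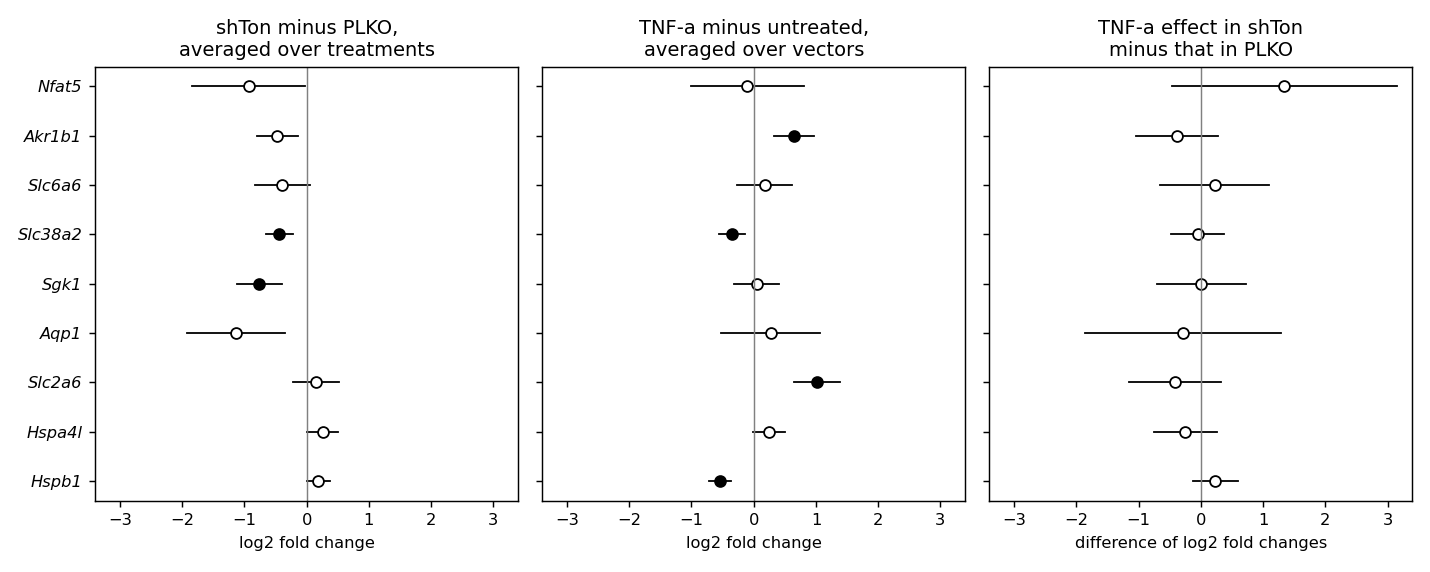
Log2 fold change with its 95% confidence interval for the 9 genes: the shRNA effect averaged over TNF-a, the TNF-a effect averaged over vectors, and the interaction. Filled points passed at an adjusted p under 0.05 in limma: Sgk1 and Slc38a2 for the shRNA, Hspb1, Slc2a6, Akr1b1 and Slc38a2 for TNF-a, and none for the interaction.

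The genes also differed in how much of their spread lay among sets. On the log2 scale, 84.6% of the variance of Hspa4l lay among sets, 10.7% among groups and 4.73% in the rest. Hspb1 split into 47.6% among sets, 49.2% among groups and 3.14% in the rest, and Slc38a2 into 36.9%, 55.6% and 7.49%. In these 3 genes little of the spread was left once set and group were taken out. Nfat5 had 10.5% among sets, 39.0% among groups and 50.5% in the rest, which includes the library labelled shTon_TNF set 1. Against the spread within groups, neighbours in the order of group means differed by more than the larger SD in few places among the targets: Akr1b1 between PLKO_TNF and shTon_TNF, Slc38a2 between PLKO_CTR and PLKO_TNF, and Hspb1 between PLKO_CTR and shTon_TNF. Set means taken on the log2(normalised reads + 1) scale and turned back into ratios differed most widely for Aqp1, by 3.90 times between the highest and the lowest set. Those of Slc2a6 differed by 2.83 times and those of Sgk1 by 2.74 times.

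Other genes are credited to TonEBP in kidney, immune or disc cells. Of 15 listed, 7 were tested in PLKO cells, and 4 rose with TNF-a, where 5.15% of all genes rose: Nos2 (log2 fold change 1.63, adjusted p = 0.00576), which makes nitric oxide, the chemokine gene Ccl2 (1.83, adjusted p = 0.0100), Tnf (2.65, adjusted p = 0.0171) and Il6 (1.59, adjusted p = 0.0459). The Tnf call came from few reads: its mean was 42.97 ± 53.18 normalised reads in PLKO_TNF against 4.933 in PLKO_CTR. Tnf had 18.52, 6.404 and 104.0 normalised reads in PLKO_TNF sets 1 to 3, so set 3 held most of that mean. Il6, an inflammatory cytokine, was the 1 gene of the list that passed in the knockdown with TNF-a. Il6 had 400.1, 814.9 and 443.6 normalised reads in shTon_TNF sets 1 to 3, against 1437, 3636 and 1518 in PLKO_TNF, and fell by 1.92 on the log2 scale (adjusted p = 0.0200). The groups did not overlap, and the list's count of 1 came to 2 without set 1, where 643 of 12116 genes passed. Averaged over treatments, Il6 fell by 1.89 (adjusted p = 0.00323), while Pnpla6, which breaks phosphatidylcholine down to the osmolyte glycerophosphocholine, rose by 0.55 (adjusted p = 0.00779) and B3gat3, a glycosaminoglycan linker enzyme, rose by 0.59 (adjusted p = 0.0228). The median of the 7 was -0.50 in that fit, where that of all genes was 0.02. The list had 3 calls there, where 13.5% of all genes passed. It had 4 without the library labelled shTon_TNF set 1, where 1908 of 12288 genes passed, and 2 without set 3, where 576 of 12282 did. Without set 2 the count of every list is 0, since 0 genes passed at all. The count with TNF-a in PLKO cells was 4, 4 and 3 without sets 1, 2 and 3, where 1563, 746 and 976 genes passed.

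Of 12 tested genes of osmolyte synthesis, breakdown and uptake, 4 fell with TNF-a in PLKO cells and none rose, where 4.85% of all genes fell and 5.15% rose: Cdo1 (-2.68, adjusted p = 0.0130), on the path to taurine, Sord (-0.80, adjusted p = 0.0168), which turns sorbitol into fructose, and the transporters Slc38a1 (-0.59, adjusted p = 0.0429) and Slc6a8 (-0.58, adjusted p = 0.0450). Cdo1 had 208.7, 127.0 and 342.3 normalised reads in PLKO_TNF sets 1 to 3, against 508.5, 1368 and 3481 in PLKO_CTR. In the same cells Akr1b1, which makes sorbitol, rose while Sord, which removes it, fell. In shTon cells 2 of the 12 fell with TNF-a, Cdo1 (-1.93, adjusted p = 0.00863) and Sord (-0.81, adjusted p = 0.0274). Averaged over treatments, 3 of the 12 rose with the shRNA and 2 fell, where 6.38% of all genes rose and 7.12% fell. Gdpd5, which breaks down glycerophosphocholine, rose by 1.01 (adjusted p = 0.00221) and the creatine transporter Slc6a8 by 1.10 (adjusted p = 0.0114). Impa1, an enzyme of inositol synthesis, fell by 0.50 (adjusted p = 0.00637), and Isyna1, which catalyses the step before it, fell by 0.68 (adjusted p = 0.0129). Gdpd5 had 228.3, 284.7 and 243.8 normalised reads in shTon_TNF sets 1 to 3, against 118.5, 163.3 and 101.4 in PLKO_TNF, with no overlap. The median of the 12 was -0.17 in that fit. The 5 calls of the averaged shRNA effect came to 6 without the library labelled shTon_TNF set 1, 0 without set 2 and 2 without set 3. In these fits 1908, 0 and 576 of all genes passed. The 4 calls with TNF-a in PLKO cells came to 2 without set 2 and 2 without set 3, where 746 and 976 of all genes passed.

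Among 17 tested genes of cell volume and ion transport, 2 rose and 3 fell with the shRNA, averaged over treatments, against 6.38% and 7.12% of all genes. The potassium-chloride cotransporter gene Slc12a7 rose by 0.70 (adjusted p = 0.00391) and Lrrc8a, the obligatory subunit of the volume-regulated anion channel, by 0.34 (adjusted p = 0.0250). Slc12a2, the NKCC1 cotransporter gene that brings in salt when cells shrink, fell by 0.98 (adjusted p = 0.00908), and Oxsr1, a kinase that activates it, by 0.65 (adjusted p = 0.0194). Lrrc8c, another subunit of the anion channel, rose with TNF-a in shTon cells by 2.12 (adjusted p = 0.0250) and in PLKO cells by 0.89 (adjusted p = 0.0411). Lrrc8c had 230.5, 136.5 and 331.6 normalised reads in shTon_TNF sets 1 to 3, against 23.6, 50.4 and 101.5 in shTon_CTR. The interaction for Lrrc8c was 1.23 (unadjusted p = 0.0223, adjusted p = 0.999 in limma), so the effects were not shown to differ. The 5 calls of the averaged shRNA effect came to 6 without the library labelled shTon_TNF set 1, 0 without set 2 and 2 without set 3. In these fits 1908, 0 and 576 of all genes passed. The list's call with TNF-a was lost without set 2 in PLKO cells and without set 3 in shTon cells, where 746 and 317 genes passed. Of 3 other aquaporin and urea transporter genes with values, the urea transporter gene Slc14a1 fell by 1.07 with TNF-a in PLKO cells (adjusted p = 0.0288), where 4.85% of all genes fell. The list had 0 calls there without set 1, where 1563 genes passed.

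Akr1b8, a close relative of Akr1b1, showed the same directions with wider changes. Reads could be shared between such relatives, so values of both are uncertain to that extent. Akr1b8 had 16497, 4948 and 5694 normalised reads in shTon_TNF sets 1 to 3, against 50039.8, 19269 and 29309 in PLKO_TNF, and fell by 1.98 on the log2 scale (adjusted p = 0.0281). In PLKO cells it rose by 2.06 with TNF-a (adjusted p = 0.0352), with sets 2 and 3 far higher than untreated and set 1 already at 35911 normalised reads without TNF-a. Both of these calls stood without any 1 set. Akr1b8 was also called for the averaged shRNA effect (-1.55, adjusted p = 0.00812) and the averaged TNF-a effect (1.63, adjusted p = 0.00461). The averaged shRNA call was lost without set 2, where 0 genes passed.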

How the data were processed

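RNA-seq libraries of rat NP cells in 4 groups of 3 were compared. The deposited tables hold a normalised signal per gene and library, per the file headers, and the authors' log2 fold changes and adjusted p-values. Novoalign 2.08.01, DESeq2 and build rn5 are named in the submitters' processing notes, with no role or order stated. For the read counter, annotation and shared reads, the methods were not given in the sources used here.

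Every deposited value was a whole multiple of 1 step per library within 0.001 read (100% of values), so whole read counts were recovered, and the 12 libraries, 7014925 to 18518389 reads each on shared genes, were scaled together with DESeq2 size factors over the 12899 genes common to the 3 tables. For the 6 libraries found in 2 tables, both gave equal reads. The main test was limma 3.58.1 (R 4.3.3) on log2(normalised reads + 1), which understates changes of low genes, with a mean-variance trend, the set as a term, and Benjamini-Hochberg adjustment at 0.05 over genes averaging 10 normalised reads or more. Each pair used its 2 groups alone; the interaction and the averaged effects used all 12 libraries. Pairs share control libraries, so their values are set side by side only. Libraries with the same set number deviated together from their group means (r between 0.609 and 0.889 in 18 pairs, against -0.741 to 0.18 in 36 pairs with different numbers), so set numbers pair the libraries. The set was put in the main model with earlier results of these data known. Alternatives were edgeR 4.0.16 (quasi-likelihood) and DESeq2 1.42.0 on the recovered reads, other scalings, filters and pseudocounts, no set term, and leaving out each set. The fits were tested on simulated data.

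Members and gene lists were chosen with earlier results of these data known. All members are named; of each other list, those that passed (at most 4 a comparison, by adjusted p) or else the one with the smallest unadjusted p could be named, and a selection of these is given. The averaged effects and the fits without the library labelled shTon_TNF set 1 were added after the data were seen. Promoter windows are RefSeq's, build GRCr8, and were matched by symbol; coordinates of that build were not set against the authors' files.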

Additional observations from a re-analysis of the deposited data

How the results depend on the processing

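Of 648 member values under alternatives, 580 kept direction and side of the threshold, 27 lost a call, 16 gained one and 25 changed sign. Without the set as a replicate block, genes called were 0 for TNF-a in PLKO cells, 0 and 0 for the shRNA without and with TNF-a, 6 for TNF-a in shTon cells, 0 for the interaction, 0 for the averaged shRNA effect and 167 for the averaged TNF-a effect, and no member was called in limma (785, 493, 775, 632, 29, 1652 and 1667 genes at an unadjusted p under 0.05, in the same order). For TNF-a in PLKO cells the count was 122 without the trend, 696 on all 12 libraries and 746 to 1563 leaving out 1 set. For the shRNA without TNF-a it was 2 with a pseudocount of 0.1, 0 without the trend, 3 on all 12 libraries, 394 in DESeq2 and 9 to 244 leaving out 1 set. For the shRNA with TNF-a it was 12, 0, 444 and 375 under the same changes and 99 to 643 leaving out 1 set. For TNF-a in shTon cells it was 143 without the trend, 671 in DESeq2 and 317 to 1105 leaving out 1 set. Leaving out 1 set or the library labelled shTon_TNF set 1, the averaged shRNA effect gave 0 to 1908 genes, the averaged TNF-a effect 163 to 2401 and the interaction 0. The causes were not tested.

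Akr1b1 with TNF-a in PLKO cells was 0.84 and lost its call with the deposited scaling, the smaller pseudocount, no trend and edgeR; Hspb1 and Slc2a6 lost theirs with no trend, so that 0 members were called. Sign changes, as log2 ranges over fits that leave out a set or that library, were these. With TNF-a in PLKO cells, Slc6a6 ranged from -0.09 to 0.36 and Sgk1 from -0.24 to 0.26. With the shRNA in untreated cells, Akr1b1 ranged from -0.46 to 0.01 and Hspb1 from -0.06 to 0.14. With the shRNA in treated cells, Nfat5 ranged from -1.09 to 0.17, Slc6a6 from -0.59 to 0.20 and Slc2a6 from -0.13 to 0.02. With TNF-a in shTon cells, Nfat5 ranged from -0.09 to 1.01, Slc6a6 from -0.04 to 0.54, Sgk1 from -0.02 to 0.10 and Aqp1 from -0.06 to 0.46. For the interaction, Slc6a6 ranged from -0.14 to 0.64, Slc38a2 from -0.17 to 0.06 and Sgk1 from -0.18 to 0.22, with -0.01 in edgeR and -0.04 in DESeq2 for Sgk1. For the averaged TNF-a effect, Nfat5 ranged from -0.60 to 0.40, Slc6a6 from -0.06 to 0.36 and Sgk1 from -0.13 to 0.17. Slc6a6 stood at -0.01 there without the library labelled shTon_TNF set 1. With 3 libraries a group and low members such as Slc2a6 and Aqp1, small differences were not detectable.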

Other observations

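Of 12 tested regulators and partners of TonEBP, 1 rose with TNF-a in PLKO cells, where 5.15% of all genes rose. This was Rela, an NF-kB subunit that works with TonEBP, which rose by 0.55 on the log2 scale (adjusted p = 0.0376 in limma). Its mean was 1153 normalised reads in PLKO_TNF against 783.0 in PLKO_CTR. The call was lost without set 1 and without set 3. Plcg1, a phospholipase linked to TonEBP activity, rose with the shRNA averaged over treatments by 0.40 (adjusted p = 0.0207), where 6.38% of all genes rose. This call was lost without set 2 and without set 3. The NFAT list had 3 tested genes: Nfatc3 and Nfatc4 of the calcineurin-dependent NFAT family, and Rcan1, listed beside them. Nfatc4 fell with TNF-a in PLKO cells by 0.65 (adjusted p = 0.0192), where 4.85% of all genes fell. This call stood without any 1 set. None of the 3 passed for the averaged shRNA effect in limma; Nfatc3 had the smallest unadjusted p, at 0.0561, with a log2 fold change of -0.31.

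Of 11 tested chaperones and co-chaperones beside the members, 1 rose with TNF-a in PLKO cells, where 5.15% of all genes rose. This was Hspd1, the mitochondrial Hsp60, by 0.63 (adjusted p = 0.0232). The list held 4 calls without set 1, where 1563 of 12107 genes passed, and 0 without set 2, where 746 of 12199 did. Averaged over treatments, Hspa4, of the Hsp110 family like Hspa4l, fell with the shRNA by 0.54 (adjusted p = 0.00445) and Hspb8 by 0.54 (adjusted p = 0.0341), where 7.12% of all genes fell. The list had 0 calls without set 2, where 0 genes passed at all, and 1 without set 3, where 576 genes passed. Hspa4 was thus lower with the shRNA, while Hspa4l was higher by value in 6 of 6 pairs. Among aquaporins other than Aqp1, Aqp11 rose with the shRNA averaged over treatments by 0.98 (adjusted p = 0.0300), from few reads: its group means were 16.0 normalised reads in shTon_TNF against 7.40 in PLKO_TNF, and 22.8 in shTon_CTR against 12.2 in PLKO_CTR. In that fit 6.38% of all genes rose, and the list of Aqp11 had 0 calls without set 2 and without set 3, where 0 and 576 genes passed. Aqp3 rose with TNF-a averaged over vectors by 1.25 (adjusted p = 0.0491), where 7.55% of all genes rose. The list count was 0 without set 1 and without set 2, where 1781 and 163 genes passed. Without the library labelled shTon_TNF set 1, the averaged shRNA effect gave 2 calls among the regulators, 1 in the NFAT list, 2 among the chaperones and 2 among the aquaporin and urea transporter genes. In that fit 1908 of 12288 genes passed.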
